A study of Mus musculus with 12 samples.

Results

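Mouse microglia treated for 6 h with Hevin were compared directly with microglia treated for 6 h with lipopolysaccharide (LPS). The comparison takes the 4 Hevin and the 4 LPS libraries, paired by the replicate numbers 1 to 4, and covers each gene that reached 1 FPKM (fragments per kilobase of gene, scaled for library size) in at least 4 of these 8 libraries. Of 14541 genes listed, 10946 met this rule and 3595 did not. The cells came from the forebrains of wild-type pups aged 7 to 9 postnatal days. They were captured with magnetic beads against CD11b, a surface protein of myeloid cells, and plated at 40000 to 80000 cells per well. The Hevin group received recombinant Hevin at 500 nM, and the LPS group received LPS at 50 ng/mL. The other 4 libraries received only an equal volume of growth medium (Media) and are used here to say which treatment moved a gene. All 3 groups share the dissociation, the capture and the time in culture, so no group stands for undisturbed cells. Whether the 4 libraries of each group go back to different animals or culture preparations is not in the labels; the spread that p-values measure here may thus be technical.

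Hevin, the product of Sparcl1, is a matricellular protein that astrocytes secrete and that promotes the formation of synapses. LPS is a component of the outer membrane of Gram-negative bacteria. CD14 and MD-2 (the product of Ly96) present it to Toll-like receptor 4, which signals through the adaptor MyD88 to NF-kB and AP-1 and through the adaptors TRAM and TRIF to interferon genes. Microglia at rest keep a set of genes, among them Cx3cr1 and Mef2c, that depends on signalling by transforming growth factor beta (TGF-beta) through its receptors and SMAD proteins, and that is known to fall in inflammatory activation.

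In this comparison inflammatory genes had the largest differences. Saa3, Csf3, Serpinb2 and Il6 were higher in LPS by 6.46 to 7.42 on the log2(FPKM + 1) scale. Most interferon-stimulated, chemokine and antigen presentation genes were higher in LPS (40 of 42, 18 of 22 and 23 of 24, against 26.5% of all genes tested). Homeostatic microglia genes, lysosomal genes and targets of the liver X receptors were more often higher in Hevin (21 of 32, 19 of 38 and 7 of 12, against 27.6%), and the largest difference on that side was 3.99, in Gcnt1. The LPS receptor gene Tlr4 did not pass the test, and neither did Tlr2, which both treatments raised above Media.

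Promoters of 7 genes among the 12 largest differences on each side are shown because they hold a match to a motif of inflammatory or TGF-beta signalling, so they do not stand for all of these genes. Each line holds the 250 bases before a RefSeq start site (GRCm38.p6), read 5′ to 3′ on the strand of the gene. Capitals mark a match to 1 of the motifs searched on both strands: NF-kB (GGGNNTTTCC), the interferon-stimulated response element or ISRE (TTTCNNTTTC), AP-1 (TGANTCA), the SMAD palindrome (GTCTAGAC) and the CAGA box (AGCCAGACA). The first 5 genes were higher in LPS and the last 2 in Hevin.
Saa3: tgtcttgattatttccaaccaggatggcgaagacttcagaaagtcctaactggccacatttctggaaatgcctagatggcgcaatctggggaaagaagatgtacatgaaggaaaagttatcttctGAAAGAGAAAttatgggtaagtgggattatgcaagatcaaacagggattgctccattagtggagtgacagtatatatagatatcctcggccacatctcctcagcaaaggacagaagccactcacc
Il6: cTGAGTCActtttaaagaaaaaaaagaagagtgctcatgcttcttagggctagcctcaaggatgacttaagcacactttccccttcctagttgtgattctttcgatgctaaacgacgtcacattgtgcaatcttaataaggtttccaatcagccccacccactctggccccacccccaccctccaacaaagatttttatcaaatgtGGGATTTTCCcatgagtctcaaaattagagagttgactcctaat
Cxcl1: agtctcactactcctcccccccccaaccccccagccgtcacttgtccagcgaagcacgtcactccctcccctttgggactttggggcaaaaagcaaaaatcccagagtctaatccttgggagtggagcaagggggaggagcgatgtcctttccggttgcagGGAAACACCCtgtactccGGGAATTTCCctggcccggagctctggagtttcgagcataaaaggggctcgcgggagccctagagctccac
Cxcl2: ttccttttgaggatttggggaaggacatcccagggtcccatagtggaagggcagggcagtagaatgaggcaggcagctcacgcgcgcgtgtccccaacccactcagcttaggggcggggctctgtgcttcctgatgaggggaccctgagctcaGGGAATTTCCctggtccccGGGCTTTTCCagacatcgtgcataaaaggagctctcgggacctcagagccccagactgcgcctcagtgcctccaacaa
Cxcl10: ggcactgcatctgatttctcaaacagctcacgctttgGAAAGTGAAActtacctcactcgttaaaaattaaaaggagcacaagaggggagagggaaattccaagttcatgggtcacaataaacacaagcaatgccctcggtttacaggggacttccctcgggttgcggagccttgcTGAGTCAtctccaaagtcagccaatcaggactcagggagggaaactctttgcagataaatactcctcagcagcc
Ctla2b: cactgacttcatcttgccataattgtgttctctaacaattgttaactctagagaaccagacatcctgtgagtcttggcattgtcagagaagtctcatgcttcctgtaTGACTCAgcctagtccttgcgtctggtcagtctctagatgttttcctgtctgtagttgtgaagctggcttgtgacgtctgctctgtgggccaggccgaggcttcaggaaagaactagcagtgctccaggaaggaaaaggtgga
Tmem37: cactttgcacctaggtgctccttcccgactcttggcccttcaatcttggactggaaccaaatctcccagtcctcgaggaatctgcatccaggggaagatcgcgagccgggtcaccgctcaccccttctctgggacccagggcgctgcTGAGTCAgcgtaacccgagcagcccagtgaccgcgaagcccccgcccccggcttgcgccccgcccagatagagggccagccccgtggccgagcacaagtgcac
These windows lie at chr7:46715677-46715926 (minus strand), chr5:30012864-30013113 (plus), chr5:90890995-90891244 (plus), chr5:90903649-90903898 (plus), chr5:92348890-92349139 (minus), chr13:60897448-60897697 (minus) and chr1:120073781-120074030 (minus), in the order of the lines. The Il6 window holds an NF-kB match that begins 44 bases before the start site and an AP-1 match 249 bases before it. Cxcl1 and Cxcl2 each hold a pair of NF-kB matches, beginning 89 and 71 bases before the start in Cxcl1 and 97 and 78 bases in Cxcl2. Cxcl10 holds an ISRE match 213 bases and an AP-1 match 74 bases before its start, and Saa3 an ISRE match at 125 bases. Both Hevin-side windows, the ones of that side with a match, hold an AP-1 match, at 143 bases in Ctla2b and 103 bases in Tmem37. No match shown overlaps another. Of the 9 genes on the LPS side whose promoter was searched 7 held a match, Serpinb2 and Mmp13 among them, and Il1b and Slamf1 held none. Of the 11 genes on the Hevin side 2 held a match, and Gcnt1, Cspg4, Pald1, Il21r, Elk3, H6pd, Tmem86a, Ptgs1 and Cebpa held none. Promoters of Csf3, Rnd1, Ccl5 and Pmepa1 were not analysed here.

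Over whole windows of 300 bases (250 before the start and 50 after), an NF-kB match was present in 1.63% of all 32851 RefSeq promoters and in 1.76% of the 10650 promoters of genes tested. Among genes called at least 4-fold higher in LPS it was present in 9.94% of 171 promoters, and among genes called at least 4-fold higher in Hevin in 0 of 55. The ISRE was present in 3.44% of all promoters and 3.21% of those of genes tested, in 13.5% of the LPS set and in 1.82% of the Hevin set. AP-1 matches were equally frequent on both sides, at 16.4% of the LPS set and 16.4% of the Hevin set, against 5.22% of the promoters of genes tested and 7.81% of all promoters. The SMAD palindrome was found in 1 of 171 promoters of the LPS set and in 2 of 55 of the Hevin set, against 0.207% of those of genes tested and 0.213% of all. The CAGA box was found in 1 of 171 and 0 of 55, against 0.244% and 0.387%. These shares describe letters in a window. They are no test, and they say nothing on whether a factor binds there.

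All 10 microglia and macrophage markers were measured in every group, but their sum does not tell microglia from other macrophages. It was 1432 to 2014 FPKM in Hevin, 723 to 1026 in LPS and 834 to 1086 in Media. The Hevin libraries lay above all others. In such bulk libraries a change in the share of cells of a type and a change in RNA per cell cannot be told apart. The 3 libraries numbered 2 stood apart from the rest: 5 neutrophil markers measured (S100a8, S100a9, Mpo, Ngp, Camp) summed to 1886 to 2037 FPKM there and to 38.8 to 102 FPKM in the other 9 libraries. Without number 2, 2803 genes were called higher in Hevin and 2713 in LPS. Border macrophage markers summed to 612 to 814 FPKM in Hevin, 684 to 852 in LPS and 808 to 939 in Media. Markers of astrocytes summed to 20.5 to 42.9 FPKM in Hevin and 112 to 233 in LPS. This gap was carried by Gja1, the gene of connexin 43, at 25.3 ± 6.61 and 174 ± 51.1 FPKM (SD, n = 4), and without it the sums overlapped, at 1.35 to 9.72 and 2.03 to 13.2 FPKM, and their part in other differences was not tested. Neuronal markers summed to at most 16.7 FPKM, and endothelial and mural cell markers ranged from 26.9 to 159 FPKM, along the replicate numbers more than the groups. Of 6 lymphocyte and 5 erythroid markers only 1 each was listed, under 1.2 FPKM. Depth, counted as whole reads recovered from the FPKM values, was 21389784 to 27361665 reads in Hevin, 19395973 to 27263115 in LPS and 18343996 to 25910349 in Media.

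Differences are Hevin minus LPS on the log2(FPKM + 1) scale with their SE, from a limma model with the replicate number as a block, and p-values are Benjamini-Hochberg adjusted over all genes tested. The scale understates the change of genes with low values. At an adjusted p under 0.05, 3022 genes (27.6% of those tested) were higher in Hevin and 2904 (26.5%) were higher in LPS. Of these 5926 genes, 5766 went the same way in all 4 pairs, a trait that a call from a fit of these same pairs favours. Values of both groups did not overlap in 20.2% of genes tested with Hevin above and in 17.9% with LPS above.

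The counts on the sides were close to equal, but the sizes were not. On the log2(FPKM + 1) scale, differences of at least 2-fold were found in 374 genes higher in Hevin and 617 higher in LPS, of at least 4-fold in 54 and 197, and of at least 16-fold in 0 and 23. The split of calls changed with the scaling. The authors' FPKM values carry scaling factors of 0.804 to 0.897 in LPS and 1.02 to 1.16 in Hevin. With library totals alone, 5977 genes were higher in Hevin and 1304 in LPS, which is 82.1% of calls on the Hevin side against 51.0% with the factors, and the median of all genes moved from 0.013 to 0.32. With upper quartile scaling the split was 4064 and 2138, or 65.5% on the Hevin side. Directions below are those with the authors' factors.

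**Figure D1:**
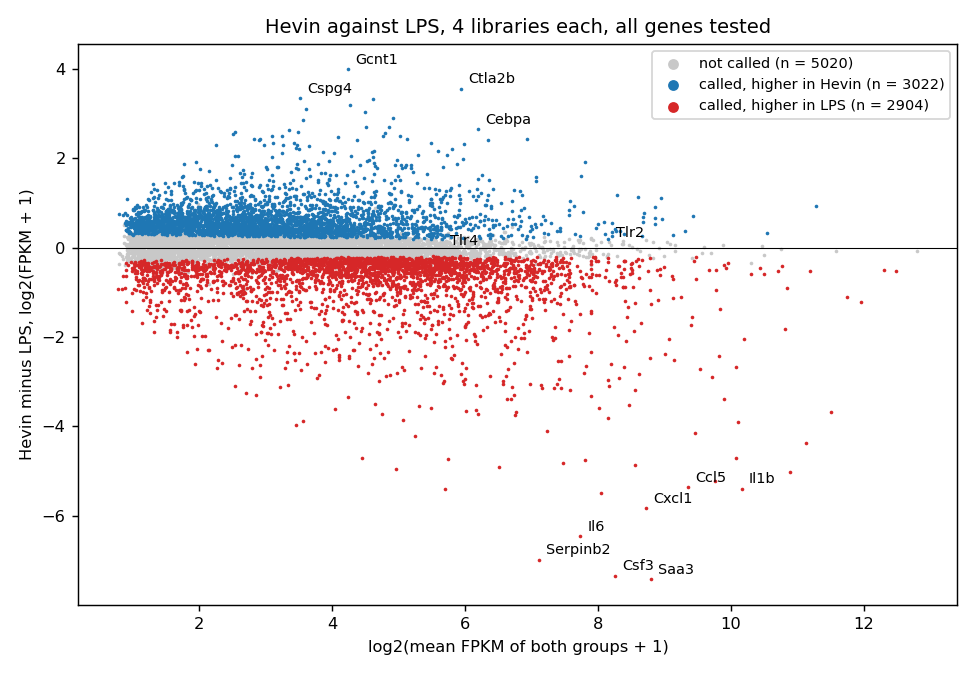
Each point is 1 of 10946 genes, with the log2 mean level of both groups on the x axis and the difference Hevin minus LPS on the log2(FPKM + 1) scale on the y axis. Blue points were called higher in Hevin (3022), red points higher in LPS (2904) and grey points were not called. The LPS side reaches past -7 and the Hevin side to 3.99.

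The largest differences on the LPS side were mostly in genes of secreted inflammatory proteins. These genes, and those on the Hevin side, were picked among genes whose groups do not overlap, so that trait is part of the choice. Saa3, an acute phase protein of the serum amyloid family, stood at 1.22, 4.02, 4.45 and 4.67 FPKM in Hevin libraries 1 to 4 and at 490.0, 337, 1219 and 1479 FPKM in LPS libraries 1 to 4. LPS 3 and LPS 4 were the highest, and the lowest LPS library was still far above every Hevin library. The difference was -7.42 ± 0.28 (adjusted p = 4.50e-07). Csf3, the gene of granulocyte colony-stimulating factor, stood at 1.24, 1.53, 5.46 and 2.34 FPKM in Hevin and 251, 483, 1004 and 695 FPKM in LPS. In both groups library 3 was the highest, and the difference was -7.34 ± 0.14 (adjusted p = 6.44e-08). Serpinb2, an inhibitor of plasminogen activators, was at 0.475, 0.574, 1.91 and 0.796 FPKM in Hevin and 107, 172, 465 and 354 FPKM in LPS, a difference of -6.98 ± 0.20 (adjusted p = 1.70e-07). Of the Hevin libraries only number 3 passed 1 FPKM. Some exonic sequence of Serpinb2 also belongs to Serpinb10 on that strand, so reads of both could be counted together.

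Il6, the gene of the cytokine interleukin 6, was at 1.79, 2.24, 3.83 and 2.97 FPKM in Hevin and at 85.2, 285, 775 and 539.7 FPKM in LPS. LPS 1 was the lowest LPS library and was still above all Hevin libraries, and the mean was 156 times as high in LPS (difference -6.46 ± 0.33, adjusted p = 1.72e-06). The NF-kB and AP-1 matches in its promoter are shown above. Cxcl1, a chemokine that attracts neutrophils, was at 3.11, 9.68, 14.8 and 15.3 FPKM in Hevin and 141, 455, 1581 and 1149.8 FPKM in LPS, a difference of -5.83 ± 0.22 (adjusted p = 4.50e-07). Number 1 was the lowest and numbers 3 and 4 the highest in both groups. Its neighbour Cxcl2 was at 97.98, 111, 109 and 100.8 FPKM in Hevin and 1868, 4825, 4655 and 3372 FPKM in LPS, a difference of -5.03 ± 0.18 (adjusted p = 3.70e-07). The Hevin libraries lay within a narrow band, while LPS 1 was well under the other LPS libraries. Il1b, the gene of interleukin 1 beta, was at 57.5, 82.4, 36.6 and 36.96 FPKM in Hevin and 1392, 2575, 2622 and 2334 FPKM in LPS, a difference of -5.40 ± 0.23 (adjusted p = 7.76e-07). An annotated transcript on the opposite strand shares sequence with Il1b, and whether the counting used strand is not given in the sources used here.

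Chemokines that interferon induces were also far apart. Ccl5 was at 21.02, 21.8, 61.5 and 26.2 FPKM in Hevin and 934, 1320.2, 1547 and 1274 FPKM in LPS, a difference of -5.36 ± 0.17 (adjusted p = 2.48e-07). Hevin 3 was above the other 3 Hevin libraries, as Media 3 was among the Media libraries (23.3, 13.99, 76.2 and 26.3 FPKM). Cxcl10 was at 48.4, 32.1, 61.9 and 38.3 FPKM in Hevin and 1368, 2016, 1853 and 1525 FPKM in LPS, a difference of -5.22 ± 0.17 (adjusted p = 2.70e-07). The groups were more than an order of magnitude apart in every pair. Mmp13, a collagenase, differed by -5.50 ± 0.14 (10.9 ± 4.22 FPKM in Hevin and 516 ± 72.2 in LPS), Rnd1, a small GTPase, by -5.40 ± 0.25 (1.16 ± 0.517 and 100.6 ± 57.5), and the immune receptor gene Slamf1 by -4.97 ± 0.29 (0.732 ± 0.2 and 59.7 ± 31.2).

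On the Hevin side the largest difference was in Gcnt1, a glycosyltransferase that branches O-linked glycans. It was at 41.9, 32.03, 29.9 and 34.3 FPKM in Hevin and 1.71, 1.22, 0.943 and 1.09 FPKM in LPS, a difference of 3.99 ± 0.09 (adjusted p = 7.01e-08). All Hevin libraries were above the Media libraries (4.19, 3.38, 4.13 and 4.64 FPKM), and all LPS libraries were under them. Cspg4, the gene of the NG2 proteoglycan, was at 14.3, 12.1, 25.3 and 28.6 FPKM in Hevin and 0.891, 0.555, 1.18 and 1.3 FPKM in LPS, a difference of 3.34 ± 0.14 (adjusted p = 5.78e-07). Numbers 3 and 4 were the higher ones in each group. Cspg4 also marks oligodendrocyte precursors and pericytes. The summed oligodendrocyte lineage markers were 16.6 to 19.1 FPKM in Hevin and 11.6 to 14.7 in LPS, and their part in the Cspg4 difference was not tested.

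Pmepa1, a membrane protein that TGF-beta induces and that binds SMAD proteins, was at 41.8, 42.2, 46.9 and 43.3 FPKM in Hevin and 3.22, 4.58, 3.59 and 2.48 FPKM in LPS (difference 3.34 ± 0.12, adjusted p = 3.66e-07). The LPS libraries overlapped the Media libraries (3.23, 3.72, 2.83 and 3.59 FPKM). Cebpa, a transcription factor of the myeloid lineage, was at 135, 142, 100.8 and 120.2 FPKM in Hevin and 30.6, 19.9, 13.9 and 14.9 FPKM in LPS (difference 2.65 ± 0.13, adjusted p = 1.48e-06). LPS 1 was the highest of its group and stayed under all Hevin libraries. Elk3, a member of the ETS family of transcription factors, differed by 3.04 ± 0.10 (39.1 ± 3.97 FPKM in Hevin and 3.9 ± 0.648 in LPS), the interleukin 21 receptor gene Il21r by 3.11 ± 0.18 (20.9 ± 4.09 and 1.55 ± 0.6) and Pald1 by 3.18 ± 0.12 (33.9 ± 3.87 and 2.84 ± 0.389). Elk3 shares exonic sequence with Cdk17 on the opposite strand. H6pd, which makes NADPH in the endoplasmic reticulum, Tmem86a and Tmem37 differed by 2.91 ± 0.16, 2.85 ± 0.12 and 2.70 ± 0.24. Ctla2b, related to the propeptides of cathepsins, differed by 3.56 ± 0.08 (112 ± 10.1 and 8.68 ± 1.5 FPKM), but it has a close paralog in Ctla2a and overlaps other gene models on its strand, so its own level is uncertain.

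**Figure D2:**
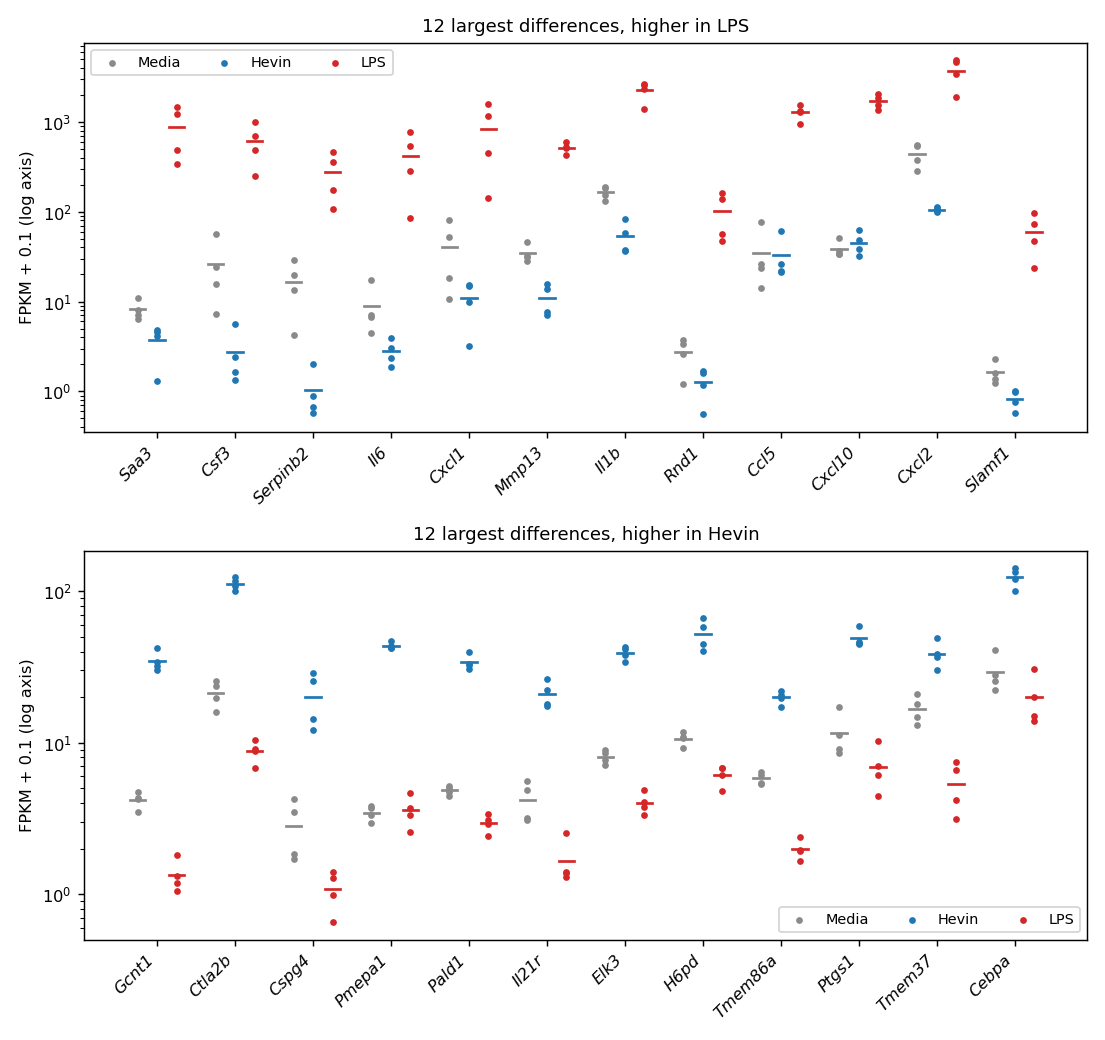
FPKM of each library (points) and group means (lines) for the 12 largest differences on each side, in Media (grey), Hevin (blue) and LPS (red), on a log axis with 0.1 added to each value. The 24 genes were picked among called genes whose Hevin and LPS values do not overlap, so the gap between red and blue points is part of the choice. In 19 of them the treatments moved in opposite directions from Media, a pattern that ranking by Hevin minus LPS favours.

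The Media libraries show which treatment moved these genes. In a fit of all 12 libraries, 11.1% of genes tested were above Media and 11.0% under Media in Hevin, and 22.0% and 22.3% in LPS. These contrasts share libraries with each other and with the direct comparison, so their overlap is a description. Of the 2904 genes higher in LPS, 2050 were above Media in LPS and 845 were under Media in Hevin. Of the 3022 genes higher in Hevin, 1899 were under Media in LPS and 951 were above Media in Hevin. By class, 1483 genes higher in LPS and 1396 genes higher in Hevin were moved by LPS alone. Another 341 and 468 were moved by Hevin alone. Here alone means that the other treatment did not pass against Media, which does not show that it left the gene unchanged. For 477 genes higher in LPS and 444 higher in Hevin, both treatments moved the gene in opposite directions from Media. Both treatments raised 90 and 39 genes, both lowered 27 and 59, and 486 and 616 passed in neither contrast with Media.

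Opposite movement from Media was found for 19 of the 24 largest differences, and ranking by Hevin minus LPS favours such genes. Over all called genes this class held 16.4% of those higher in LPS and 14.7% of those higher in Hevin. Il6 was at 8.75 ± 5.67 FPKM in Media, Cxcl1 at 40.2 ± 32.1 and Il1b at 164 ± 26.1 (SD, n = 4). Against Media, Il1b fell by 1.67 ± 0.23 in Hevin and rose by 3.73 ± 0.23 in LPS. Gcnt1, Cspg4, Elk3 and Cebpa had the reverse pattern, and Cebpa rose by 2.08 ± 0.12 in Hevin and fell by 0.56 ± 0.12 in LPS. Without the replicate block this class held 140 genes higher in LPS and 146 higher in Hevin, and leaving out number 3 left 209 and 209, so the size of this class depends on the block and on the libraries used.

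Movement by Hevin alone was seen in Pmepa1, in Creb3l2 (14.4 ± 2.6 FPKM in Hevin, 2.59 ± 0.88 in LPS, 3.23 ± 0.678 in Media) and in Arg1, the gene of arginase 1. Arg1 was at 12.97, 5.83, 4.93 and 12.7 FPKM in Hevin and at 0.627, 0.289, 0.443 and 0.901 FPKM in LPS, a difference of 2.60 ± 0.17 (adjusted p = 6.29e-06). LPS libraries overlapped the Media libraries (0.563, 0.489, 0.548 and 1.03 FPKM), and Hevin 1 and 4 were more than 2 times as high as Hevin 2 and 3. The mannose receptor gene Mrc1 was moved by Hevin alone in the other direction, at 71.7 ± 11.97 FPKM in Hevin against 178 ± 24.1 in LPS and 161 ± 16.8 in Media (difference -1.30 ± 0.11). Mrc1 also marks border macrophages, and the 6 markers of these cells went both ways. Mrc1 and Cd163 (difference -0.94 ± 0.15) were higher in LPS, and Ms4a7, Lyve1 and F13a1 were higher in Hevin (differences 0.95 ± 0.10, 0.66 ± 0.08 and 0.43 ± 0.08). The part of such cells in these differences was not tested. Fosl1, a subunit of AP-1, was likewise lower in Hevin (3.39 ± 0.737 FPKM) than in LPS (11.4 ± 1.7) and Media (8.77 ± 1.91). In LPS against Media, Creb3l2 (-0.25 ± 0.10, limma adjusted p = 0.0577) and Fosl1 (0.36 ± 0.14, limma adjusted p = 0.0568) were near the threshold.

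Movement by LPS alone included Ccl5, Cxcl10, Rnd1 and Slamf1 among genes higher in LPS. Among genes higher in Hevin it included the transcription factor gene Hhex, at 18.9, 21.5, 14.3 and 15.2 FPKM in Hevin and 3.8, 5.07, 1.96 and 1.84 FPKM in LPS (difference 2.20 ± 0.12, adjusted p = 2.54e-06). Hevin libraries lay with the Media libraries (18.3, 16.1, 12.9 and 15.00 FPKM), and LPS 3 and 4 were the lowest. Hpgd, which inactivates prostaglandins, Arhgap25 and Nfam1 showed the same class, with differences of 2.13 ± 0.10, 1.96 ± 0.17 and 2.27 ± 0.20. In Hevin against Media, Rnd1 (-0.73 ± 0.26, limma adjusted p = 0.0693) and Nfam1 (0.50 ± 0.18, limma adjusted p = 0.0683) were near the threshold.

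Genes that both treatments raised still differed in size. Ptges, the inducible prostaglandin E synthase gene, was at 10.9, 6.97, 14.96 and 10.3 FPKM in Hevin and 220.3, 242, 419 and 483 FPKM in LPS, against 5.3, 4.97, 9.82 and 6.71 FPKM in Media. Its mean was 31.6 times as high in LPS as in Hevin (difference -4.82 ± 0.16, adjusted p = 3.31e-07). The reverse held for the potassium channel gene Kcna3, at 14.9, 13.1, 13.3 and 12.9 FPKM in Hevin, 2.26, 1.54, 1.23 and 1.44 FPKM in LPS and 0.96, 0.734, 0.616 and 1.13 FPKM in Media. Its difference was 2.49 ± 0.10 (adjusted p = 5.98e-07). Spsb1, the nucleotide receptor gene P2ry6 and the TGF-beta inhibitor gene Smad7 were in the same class, with differences of 1.80 ± 0.12, 1.44 ± 0.10 and 1.25 ± 0.11. Both treatments lowered Cytip (15.9 ± 5.33 FPKM in Hevin, 6.65 ± 2.22 in LPS, 26.8 ± 6.1 in Media), and it was lower in LPS (difference 1.13 ± 0.09). Thbs1, the gene of thrombospondin 1, was lowered by both and was lower in Hevin (144 ± 25.7 FPKM against 254 ± 24.4 in LPS and 433 ± 31.3 in Media, difference -0.83 ± 0.10).

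A further group moved from Media in the same direction by about the same amount. In 106 genes both treatments were above Media, and in 199 genes both were under it, with the 95% interval of Hevin minus LPS within 0.58 of 0 on the log2 scale. Tlr2, the receptor for bacterial lipoproteins, was at 388, 245, 287 and 278 FPKM in Hevin, 338, 278, 229 and 249 FPKM in LPS and 122, 55.6, 54.1 and 58.8 FPKM in Media. Number 1 was the highest of each group, and the Hevin and LPS libraries overlapped. The difference was 0.13 ± 0.09 (95% interval -0.09 to 0.34, adjusted p = 0.286). The receptor tyrosine kinase gene Axl, which serves the uptake of apoptotic cells, was at 55.5 ± 8.85 FPKM in Hevin, 50.4 ± 6.39 in LPS and 22.4 ± 3.56 in Media (difference 0.13 ± 0.11, 95% interval -0.13 to 0.39), and the growth factor gene Pdgfa at 69.3 ± 8.08, 65.5 ± 11.1 and 27.5 ± 6.58 (difference 0.09 ± 0.11, 95% interval -0.16 to 0.34). Among genes lowered alike were the nuclear receptor gene Pparg, at 2.96 ± 0.653, 2.84 ± 1.04 and 7.73 ± 1.27 FPKM (difference 0.07 ± 0.12, 95% interval -0.21 to 0.35), and Ramp3 (difference -0.19 ± 0.10, 95% interval -0.42 to 0.04). With library totals alone Tlr2, Axl and Pdgfa were called higher in Hevin, by 0.48, 0.48 and 0.44, and Pparg by 0.33, beside a median of all genes of 0.32. Under quantile normalization Tlr2, Axl and Pdgfa were called higher in Hevin by 0.72, 0.41 and 0.43, and with upper quartile scaling Tlr2 by 0.26. Without number 4, Ramp3 was called higher in LPS (difference -0.30).

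Genes of LPS sensing split between both sides. Of 24 Toll-like receptor and adaptor genes tested, 9 were higher in Hevin and 11 in LPS (37.5% and 45.8%, against 27.6% and 26.5% of all genes), with a median of -0.15 against 0.013 over all genes. With library totals alone these counts became 12 and 9, and with upper quartile scaling 11 and 10. Without the replicate block they were 6 and 10, without number 1 they were 7 and 12, and without any other number 6 and 11. Tlr4 was at 48.7, 48.5, 46.7 and 48.7 FPKM in Hevin and 54.8, 40.5, 50.2 and 59.3 FPKM in LPS. The Hevin libraries lay inside the range of the LPS libraries, and the difference was -0.07 ± 0.10 (95% interval -0.30 to 0.15, adjusted p = 0.551), while both groups were under Media (66.3 ± 7.03 FPKM). With library totals alone Tlr4 was called higher in Hevin by 0.28, under the median shift of 0.32. Cd14, the co-receptor that hands LPS over, was at 2418, 2039, 2044 and 2189 FPKM in Hevin and 5249, 4165, 4594 and 4841 FPKM in LPS, a difference of -1.12 ± 0.08 (adjusted p = 1.43e-05). Every LPS library was above every Hevin library, but under quantile normalization the difference was -0.13 (adjusted p = 0.444). Ly96 was at 15.6 ± 0.703 FPKM in Hevin and 32.9 ± 8.87 in LPS (difference -0.99 ± 0.14) and Myd88 at 52.5 ± 8.17 and 124 ± 19.1 (difference -1.22 ± 0.08). Myd88 shares exonic sequence with Acaa1a on the opposite strand.

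Tlr1, which pairs with the product of Tlr2, was the list member with the largest difference on the LPS side, at 8.63, 7.57, 6.77 and 8.17 FPKM in Hevin and 43.8, 63.9, 59.1 and 66.3 FPKM in LPS (difference -2.74 ± 0.13, adjusted p = 1.11e-06). It stood under Media in Hevin and above Media in LPS (15.5 ± 1.43 FPKM in Media). Irak3, a brake on this pathway, was at 5.54 ± 0.914 FPKM in Hevin and 26.4 ± 6.37 in LPS (difference -2.05 ± 0.11). On the Hevin side Tlr13, a receptor for bacterial ribosomal RNA, was at 137, 127, 97.3 and 114 FPKM in Hevin and 63.3, 45.8, 22.9 and 41.2 FPKM in LPS (difference 1.51 ± 0.13, adjusted p = 3.87e-05), with LPS 3 the lowest library. Tlr8 differed by 1.13 ± 0.14, and Ticam2, the gene of the adaptor TRAM, by 1.31 ± 0.10 (10.7 ± 1.11 FPKM in Hevin and 3.76 ± 0.875 in LPS). Ticam2 shares exonic sequence with Tmed7 on the same strand. Sparcl1, the gene of Hevin itself, was at 2.73, 7.47, 16.4 and 13.4 FPKM in Hevin and 3.43, 9.4, 16.9 and 12.6 FPKM in LPS and did not pass the test (difference -0.13 ± 0.10, adjusted p = 0.309). Its level followed the replicate numbers in both groups, with number 1 the lowest and number 3 the highest.

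**Figure D3:**
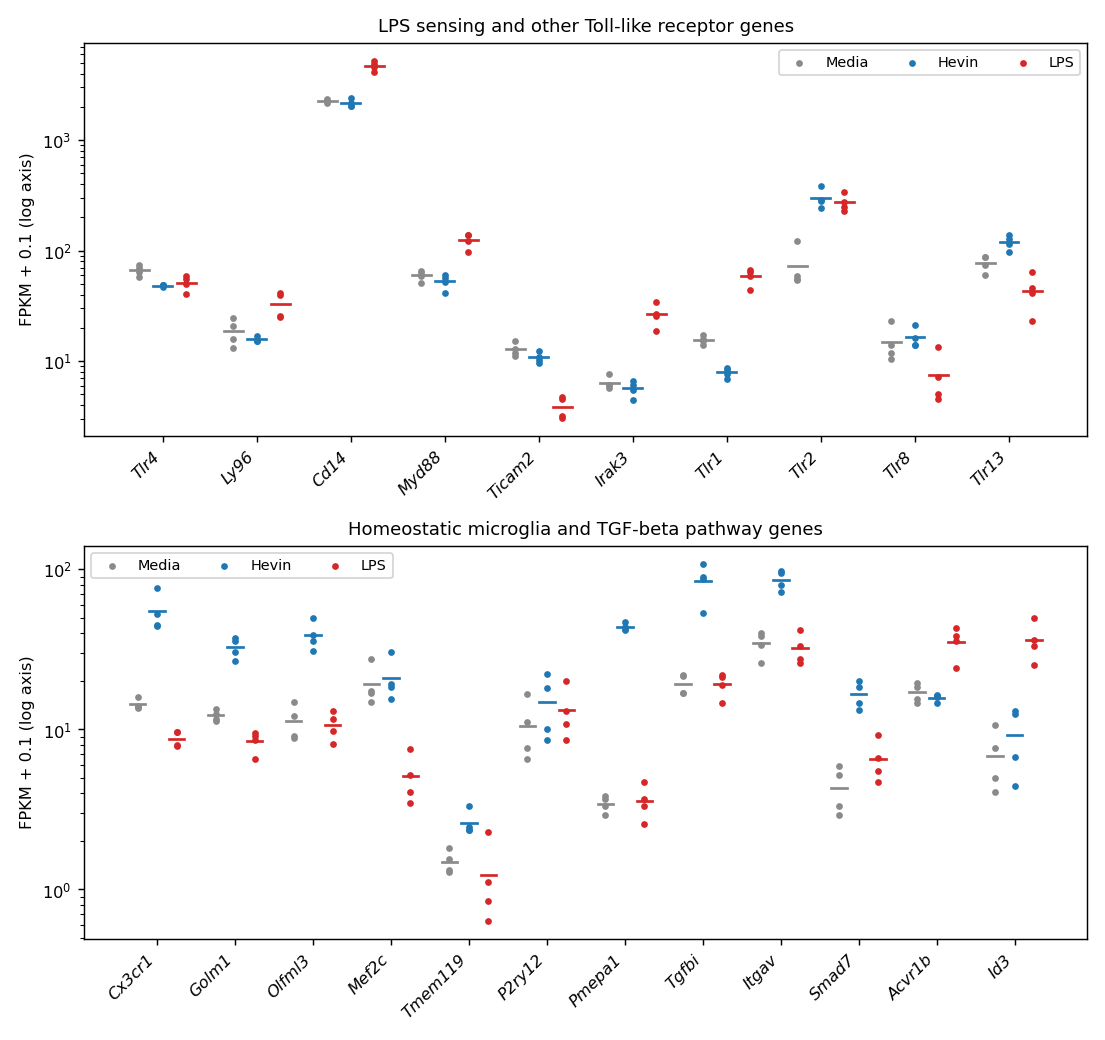
FPKM of each library (points) and group means (lines) in Media (grey), Hevin (blue) and LPS (red), on a log axis with 0.1 added, for genes of LPS sensing (top) and for homeostatic microglia and TGF-beta pathway genes (bottom). Hevin and LPS points overlap in Tlr4, Tlr2 and P2ry12, and lie apart in Cd14, Tlr1, Tlr13, Cx3cr1, Olfml3 and Pmepa1.

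Gene lists of the inflammatory response were the most one-sided. Of 23 genes of NF-kB subunits and inhibitors 19 were higher in LPS and 0 in Hevin, with a median difference of -1.65. Of 22 cytokine genes 18 were higher in LPS and 1 in Hevin (median -2.60), and of 22 chemokine genes 18 and 2 (median -2.73). Of 42 interferon-stimulated genes 40 were higher in LPS and 0 in Hevin (median -1.50), and of 24 genes of antigen presentation and co-stimulation 23 and 0 (median -0.74). Over all genes tested 26.5% were higher in LPS, and the median was 0.013. In the NF-kB, interferon and antigen presentation lists limma gave 0 genes higher in Hevin also at an unadjusted p under 0.05, and limma-voom gave 0 as well. Without the libraries numbered 2 the LPS-side counts of these 5 lists were 19, 17, 19, 40 and 23. Without the replicate block they were 18, 17, 16, 21 and 13, and with library totals alone 18, 17, 16, 38 and 16. These lists were chosen with earlier results of the same libraries known, so their direction is not independent evidence.

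Within the NF-kB list, Nfkbiz, an atypical inhibitor that promotes transcription of Il6, was at 13.9, 14.6, 16.4 and 13.8 FPKM in Hevin and 146, 209, 237 and 217 FPKM in LPS, a difference of -3.68 ± 0.10 (adjusted p = 1.47e-07). The Hevin libraries were close together and under every Media library (18.8, 25.03, 26.8 and 23.4 FPKM). Nfkbia, the classical inhibitor, was at 90.4 ± 10.6 and 577 ± 44.04 FPKM (difference -2.66 ± 0.09), and the signalling adaptor gene Traf1 at 8.49 ± 1.37 and 119 ± 21.1 FPKM (difference -3.65 ± 0.10). The 4 members that did not pass were Ikbkb, Ikbkg, Chuk and Cyld, named here after their values were seen. Their differences were -0.05, 0.01, -0.19 and -0.08, and the first 3 encode subunits of the IKK complex. In the cytokine list, Il1rn, which encodes the antagonist of the interleukin 1 receptor, was at 163 ± 57.5 FPKM in Hevin and 1732 ± 641 in LPS (difference -3.39 ± 0.13). The cytokine higher in Hevin was Tgfb1, at 84.7, 93.5, 100.5 and 112 FPKM in Hevin and 75.6, 86.4, 63.5 and 58.8 FPKM in LPS (difference 0.46 ± 0.13, adjusted p = 0.019). LPS 2 was above Hevin 1, and the call was lost without number 3 or without number 4.

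Chemokines on the Hevin side were Cxcl14, at 4.34 ± 0.734 FPKM in Hevin and 0.484 ± 0.327 in LPS (difference 1.86 ± 0.15), and Ppbp, the gene of platelet basic protein, at 67.4 ± 17.6 and 31.3 ± 10.3 FPKM (difference 1.10 ± 0.16). Cxcl14 was raised by Hevin alone, whereas Ppbp was lowered by both treatments from 158 ± 37.8 FPKM in Media. Ccl4 and Ccl9 were at 208 ± 34.99 and 28.9 ± 8.13 FPKM in Hevin and at 4276 ± 461 and 182 ± 62.6 in LPS (differences -4.36 ± 0.13 and -2.59 ± 0.08). Of the 22 chemokine genes, 14 were under Media in Hevin and 2 above it, and 17 were above Media in LPS and 3 under it. Over all genes tested the shares were 11.0% and 11.1% in Hevin and 22.0% and 22.3% in LPS.

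The interferon-stimulated genes differed in level between the replicate numbers as well as between treatments. Gbp5, a guanylate-binding protein that acts on vesicles of bacteria, was at 5.24, 1.61, 8.69 and 4.93 FPKM in Hevin and 147, 102, 211 and 239.6 FPKM in LPS, a difference of -4.92 ± 0.16 (adjusted p = 2.70e-07). Number 2 was the lowest library in each group, and also in Media (5.58, 2.48, 8.35 and 5.05 FPKM). Cmpk2, a mitochondrial nucleotide kinase, was at 65.8, 22.6, 97.6 and 66.4 FPKM in Hevin and 522, 269, 632 and 622 FPKM in LPS (difference -3.09 ± 0.13), and Gbp2 at 17.6 ± 12.5 and 178 ± 85.6 FPKM (difference -3.39 ± 0.14). All 42 genes were above Media in LPS, against 22.0% of all genes tested. In Hevin 6 were above Media and 1 was under it, against 11.1% and 11.0% of all genes. Bst2, named after its values were seen, was not called in the direct comparison (difference -0.24 ± 0.12).

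For antigen presentation, Cd40, a co-stimulatory receptor, was at 4.43 ± 2.23 FPKM in Hevin and 24.3 ± 9.48 in LPS (difference -2.24 ± 0.09, adjusted p = 5.30e-07). Cd274, the gene of the checkpoint ligand PD-L1, was at 27.99, 21.3, 33.8 and 30.6 FPKM in Hevin and 127, 107, 187 and 201 FPKM in LPS (difference -2.38 ± 0.10, adjusted p = 5.46e-07). Both were above Media in both treatments, with 3.11 ± 1.9 and 17.05 ± 2.32 FPKM in Media. The class I gene H2-Q4 differed by -1.51 ± 0.08, and genes of this family share near-identical sequence, so its own level is uncertain. The exception in the list was H2-DMa, which did not pass (difference 0.20 ± 0.10, adjusted p = 0.137) and is named after its value was seen.

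Homeostatic microglia genes were mostly higher in Hevin. Of 32 genes tested, 21 were higher in Hevin and 1 in LPS (65.6% and 3.12%, against 27.6% and 26.5% of all genes). Their median was 0.55. Cx3cr1, the fractalkine receptor gene, was at 76.7, 44.3, 45.2 and 52.5 FPKM in Hevin and 7.78, 9.55, 7.87 and 9.5 FPKM in LPS, a difference of 2.49 ± 0.15 (adjusted p = 4.58e-06). Hevin 1 was the highest, and the LPS libraries lay under all Media libraries (15.8, 13.4, 13.8 and 13.9 FPKM). Mef2c, a transcription factor that restrains microglial activation, was at 30.3, 18.4, 15.3 and 19.2 FPKM in Hevin and 7.49, 5.09, 3.98 and 3.38 FPKM in LPS (difference 1.87 ± 0.11, adjusted p = 3.59e-06). Here the Hevin libraries lay with Media (19.05 ± 5.7 FPKM) and LPS lowered the gene. Olfml3 was at 38.7 ± 7.99 FPKM in Hevin and 10.5 ± 2.18 in LPS (difference 1.79 ± 0.08) and was raised by Hevin alone, and Golm1 at 32.5 ± 4.79 and 8.35 ± 1.3 (difference 1.84 ± 0.08). Tmem119 was low in all libraries, at 2.25, 3.23, 2.35 and 2.25 FPKM in Hevin and 0.751, 2.19, 0.531 and 1.02 FPKM in LPS (difference 0.78 ± 0.14, adjusted p = 0.00167).

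The member higher in LPS was the transcription factor gene Maf (difference -0.50 ± 0.13, adjusted p = 0.0102), a call lost without number 4, without the replicate block (adjusted p = 0.0971) and with library totals alone. P2ry12, a receptor for nucleotides and a common marker of resting microglia, did not pass, at 17.9, 22.2, 8.51 and 10.02 FPKM in Hevin and 12.95, 19.9, 8.53 and 10.8 FPKM in LPS (difference 0.12 ± 0.11, adjusted p = 0.356). Its values overlapped, and numbers 1 and 2 were higher than 3 and 4 in both groups. Of the 10 microglia and macrophage markers 7 were higher in Hevin and 0 in LPS (median 0.78) by limma, at an unadjusted p under 0.05 and by limma-voom as well. The other 3 were P2ry12 and the general myeloid markers Aif1 and Itgam, which did not pass, with differences of -0.21 ± 0.09 and -0.04 ± 0.09. Of the 32 homeostatic genes, 18 were above Media in Hevin and 2 under it, and 3 were above Media in LPS and 9 under it. Over all genes tested the shares were 11.1% and 11.0% in Hevin and 22.0% and 22.3% in LPS. Without the libraries numbered 2 the direct counts were 21 and 2.

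The TGF-beta pathway had genes on both sides. Of 36 genes tested 19 were higher in Hevin and 11 in LPS (52.8% and 30.6%, against 27.6% and 26.5% of all genes). Their median was 0.30. With library totals alone the counts were 21 and 6, without the block 14 and 8, and without number 2 they were 17 and 9. Among receptors and activators, Itgav, the integrin subunit that releases latent TGF-beta, was at 96.99, 95.5, 72.3 and 79.9 FPKM in Hevin and 33.1, 41.9, 27.5 and 25.9 FPKM in LPS (difference 1.41 ± 0.09, adjusted p = 5.01e-06). Its partner Itgb5 was at 38.7 ± 4.07 and 7.99 ± 1.17 FPKM (difference 2.15 ± 0.08). Acvr1b, an activin receptor, was higher in LPS (difference -1.09 ± 0.11). Among targets, Tgfbi, a matrix protein induced by TGF-beta, was at 89.9, 53.6, 86.7 and 109 FPKM in Hevin and 21.1, 14.6, 18.9 and 21.7 FPKM in LPS (difference 2.07 ± 0.09, adjusted p = 8.55e-07), and its LPS libraries lay in the range of Media or just under it (16.7, 16.8, 21.8 and 21.6 FPKM). Among the negative regulators, Pmepa1 and Smad7 are given above, and both were higher in Hevin. Id3, a target of bone morphogenetic protein signalling, was higher in LPS, at 9.08 ± 4.27 FPKM in Hevin and 35.95 ± 10.2 in LPS (difference -1.94 ± 0.14), and so was the transcription factor gene Zeb1 (difference -0.73 ± 0.10). Tgfbr1, the type I receptor gene, was named after its values were seen, at 259, 236, 135 and 155 FPKM in Hevin and 79.8, 106, 48.96 and 48.1 FPKM in LPS (difference 1.49 ± 0.10).

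Disease-associated microglia genes and phagocytic receptors were mixed. Of 25 disease-associated genes 11 were higher in Hevin and 5 in LPS (44% and 20%, median 0.13). Over all genes tested the shares were 27.6% and 26.5%. Under quantile normalization the list counts were 18 and 4, with library totals alone 16 and 1, and without the block 8 and 2. Trem2, a lipid-sensing receptor of microglia, was at 125, 106, 94.7 and 123 FPKM in Hevin and 58.9, 48.4, 45.9 and 43.1 FPKM in LPS (difference 1.18 ± 0.09, adjusted p = 1.89e-05). Ank, a transporter of pyrophosphate, and the growth factor gene Igf1 were higher in Hevin too (differences 2.32 ± 0.14 and 1.08 ± 0.07), whereas the inhibitory receptor gene Lilrb4a was higher in LPS (difference -1.82 ± 0.10), at 801 ± 162 and 2801 ± 306 FPKM. Of 32 complement, Fc, scavenger and phagocytic receptor genes 12 were higher in Hevin and 12 in LPS (37.5% each). With library totals alone the counts were 18 and 10. Havcr2, the gene of the checkpoint receptor TIM-3, was at 50.4, 42.02, 43.1 and 44.3 FPKM in Hevin and 9.18, 7.15, 5.13 and 7.75 FPKM in LPS (difference 2.49 ± 0.10, adjusted p = 6.67e-07). The fatty acid receptor gene Cd36 was also higher in Hevin (difference 1.10 ± 0.07). The inhibitory Fc receptor gene Fcgr2b was at 16.1 ± 2.29 FPKM in Hevin and 107 ± 40.3 in LPS (difference -2.59 ± 0.20), and the scavenger receptor gene Msr1 at 40.4 ± 6.91 and 152 ± 41.9 (difference -1.86 ± 0.11).

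Lysosomal genes, targets of the liver X receptors (LXR) and cell cycle genes leaned to Hevin. Over all genes tested 27.6% were higher in Hevin and 26.5% in LPS. Of 38 lysosome and vacuolar ATPase genes 19 were higher in Hevin and 3 in LPS (median 0.34), and under quantile normalization 34 and 2. The lysosomal membrane protein gene Scarb2 differed by 1.18 ± 0.08 and the cathepsin gene Ctsh by 0.76 ± 0.08, whereas Ctsc was higher in LPS (difference -1.02 ± 0.09). Of 12 LXR target genes 7 were higher in Hevin and 0 in LPS (median 0.37), and with library totals alone 12 and 0. At an unadjusted p under 0.05 limma gave 8 and 0, and limma-voom called 7 and 0. The cholesterol exporter gene Abcg1 was at 37.2, 38.8, 55.3 and 57.4 FPKM in Hevin and 17.6, 11.9, 13.2 and 15.98 FPKM in LPS (difference 1.61 ± 0.14, adjusted p = 3.64e-05), with each Hevin library above and each LPS library under all Media libraries (22.96, 20.5, 28.1 and 33.5 FPKM). The desaturase gene Scd2 differed by 1.63 ± 0.11.

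Of 25 cell cycle genes 14 were higher in Hevin and 3 in LPS (56% and 12%, median 0.43). Over all genes tested the shares were 27.6% and 26.5%. Above Media in Hevin were 4 of these 25 and under Media in LPS 9, against 11.1% and 22.3% of all genes. The direct counts were 9 and 3 where 1 FPKM was asked for in all 8 libraries, and 11 and 2 without the block. With upper quartile scaling they were 18 and 3, and with library totals alone 20 and 3. Cdk1, the mitotic kinase gene, was at 5.26 ± 0.54 FPKM in Hevin, 1.86 ± 0.57 in LPS and 3.96 ± 0.722 in Media (difference 1.15 ± 0.15). Mki67, usually read as a proliferation marker, went the other way, at 14.3, 16.6, 11.1 and 9.68 FPKM in Hevin and 19.8, 30.9, 36.6 and 42.96 FPKM in LPS (difference -1.24 ± 0.23, adjusted p = 0.00217). The cell cycle inhibitor gene Cdkn1a was also higher in LPS (difference -0.69 ± 0.08), but under quantile normalization it stood at 0.043 and did not pass. Of 20 genes of cholesterol synthesis and uptake 4 were higher in Hevin and 7 in LPS (20% and 35%). These counts were 9 and 1 with library totals alone and 6 and 4 with upper quartile scaling. On the LPS side 4 were called without number 1, and on the Hevin side 2 without number 4.

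**Figure D4:**
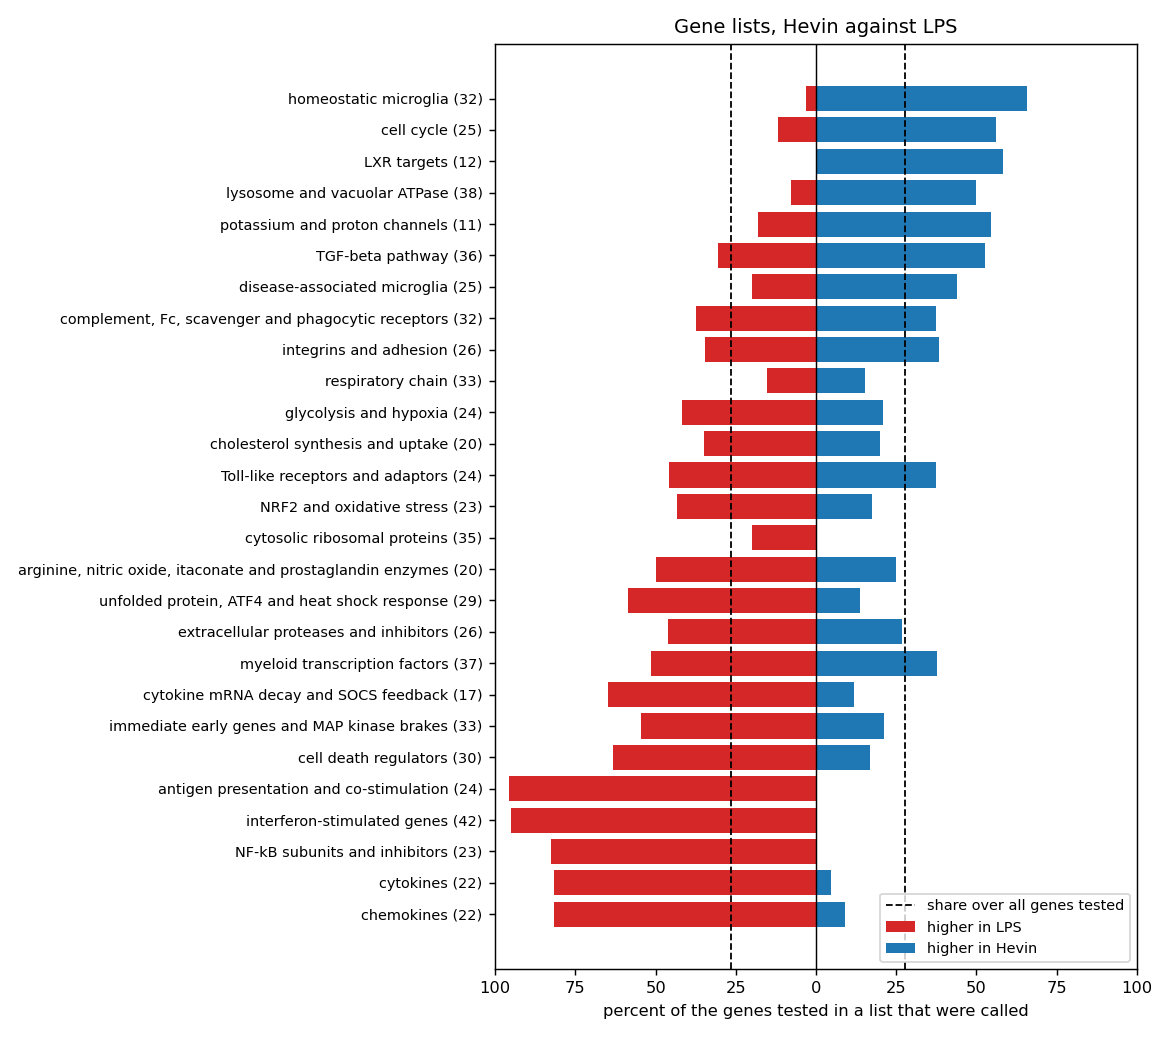
For each of 27 gene lists (number of genes tested in parentheses) the bars give the percentage of genes called higher in LPS (red, to the left) and higher in Hevin (blue, to the right), and the dashed lines mark 26.5% and 27.6%, the shares over all genes tested. Lists are ordered by their median difference, from chemokines (-2.73) at the bottom to homeostatic microglia (0.55) at the top.

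Isoforms of prostaglandin synthase and of arginase were higher on opposite sides. Of 20 genes 5 were higher in Hevin and 10 in LPS (25% and 50%, median -0.25). Over all genes tested the shares were 27.6% and 26.5%. Ptgs2, the inducible prostaglandin synthase gene, was at 178, 150.2, 112 and 109 FPKM in Hevin and 1468, 2356, 2362 and 2026 FPKM in LPS (difference -3.90 ± 0.19, adjusted p = 1.54e-06). Ptgs1, the constitutive isoform, had the reverse order, at 44.7, 46.4, 45.3 and 59.1 FPKM in Hevin and 6.89, 10.1, 4.36 and 6.06 FPKM in LPS (difference 2.71 ± 0.16, adjusted p = 4.18e-06). In each of these genes the treatments moved in opposite directions from Media (335 ± 48.9 and 11.4 ± 4.02 FPKM). Downstream of them, the thromboxane synthase gene Tbxas1 was higher in Hevin (difference 1.45 ± 0.09), as was Hpgd, while Ptges was higher in LPS. Arginase isoforms split likewise: Arg1 was higher in Hevin, as given above, and Arg2, named after its values were seen, was at 4.24 ± 0.611 FPKM in Hevin and 28.2 ± 8.54 in LPS (difference -2.44 ± 0.15). Irg1, which encodes the enzyme that makes itaconate, was at 86.8, 44.9, 112 and 83.3 FPKM in Hevin and 2031, 1776, 2141 and 2372 FPKM in LPS (difference -4.72 ± 0.15, adjusted p = 2.48e-07), and its Hevin and Media libraries covered the same range (77.6, 46.1, 115 and 83.8 FPKM).

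Feedback on signalling and mRNA was mostly higher in LPS. Over all genes tested 27.6% were higher in Hevin and 26.5% in LPS. Of 33 immediate early genes and brakes of MAP kinases 7 were higher in Hevin and 18 in LPS (median -0.49), and of 17 genes of cytokine mRNA decay and SOCS feedback 2 and 11 (median -0.42), but 4 and 6 with library totals alone. Socs3, which dampens signals of the interleukin 6 family, was at 17.9, 10.8, 15.1 and 14.4 FPKM in Hevin and 504, 259, 454 and 499 FPKM in LPS (difference -4.76 ± 0.10, adjusted p = 6.84e-08). Number 2 was the lowest in both groups. Zfp36, the gene of tristetraprolin, which destabilises cytokine mRNA, was at 306, 261, 263 and 304 FPKM in Hevin and 1560.1, 1489.8, 1553 and 1501 FPKM in LPS (difference -2.43 ± 0.08). Dual-specificity phosphatases split by gene: Dusp2 was at 17.5 ± 4.91 FPKM in Hevin and 94.9 ± 17.9 in LPS (difference -2.39 ± 0.10), and Dusp6, a phosphatase of ERK, at 56.9, 42.7, 47.7 and 61.5 FPKM in Hevin and 13.6, 11.2, 16.6 and 15.6 FPKM in LPS (difference 1.80 ± 0.10, adjusted p = 2.73e-06). Fos was also higher in Hevin (difference 0.85 ± 0.07), at 76.6 ± 7.64 FPKM against 42.1 ± 2.9 in LPS and 53.5 ± 6.36 in Media.

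Among 37 myeloid transcription factor genes 14 were higher in Hevin and 19 in LPS (37.8% and 51.4%, median -0.36). Over all genes tested the shares were 27.6% and 26.5%. With library totals alone the list counts were 16 and 15. Runx3 was at 12.05, 13.9, 9.94 and 10.3 FPKM in Hevin and 1.97, 1.67, 0.714 and 1.23 FPKM in LPS (difference 2.41 ± 0.11, adjusted p = 1.21e-06), and Batf, a partner of Jun proteins, at 3.43, 3.66, 1.99 and 2.2 FPKM in Hevin and 39.9, 43.6, 57.5 and 54.7 FPKM in LPS (difference -3.72 ± 0.19, adjusted p = 1.70e-06). Both genes were moved in opposite directions by the treatments, from 3.41 ± 1.73 and 5.69 ± 0.589 FPKM in Media. Ets2 and Tfec were higher in LPS as well (differences -1.48 ± 0.07 and -2.01 ± 0.08).

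Lists of metabolic and stress genes turned with the scaling. Over all genes tested 27.6% were higher in Hevin and 26.5% in LPS. Of 24 glycolysis and hypoxia genes 5 were higher in Hevin and 10 in LPS, but 11 and 7 with library totals alone, and 3 and 10 without number 3 or without number 4. Vegfa was at 42.7, 41.99, 54.7 and 49.2 FPKM in Hevin and 9.88, 15.3, 13.7 and 11.2 FPKM in LPS (difference 1.84 ± 0.12, adjusted p = 5.15e-06), and the hexokinase gene Hk2 at 14.4 ± 1.56 and 27.2 ± 5.53 FPKM (difference -0.86 ± 0.11). Of 23 NRF2 and oxidative stress genes 4 and 10 were higher in Hevin and LPS, but 11 and 4 under quantile normalization and 9 and 8 with library totals alone. The mitochondrial superoxide dismutase gene Sod2 was at 37.9 ± 4.43 FPKM in Hevin and 299.9 ± 44.1 in LPS (difference -2.95 ± 0.08), and the glutathione peroxidase gene Gpx1 at 95.9 ± 21.8 and 44.9 ± 7.44 (difference 1.07 ± 0.14). Of 29 genes of the unfolded protein, ATF4 and heat shock responses 4 were higher in Hevin and 17 in LPS, but 8 and 5 under quantile normalization, 8 and 7 with library totals alone, and 10, 12, 9 and 11 on the LPS side without numbers 1, 2, 3 and 4. Without the replicate block 3 and 9 were called. Hspa5, the chaperone BiP, was at 263, 349, 294 and 269.8 FPKM in Hevin and 555, 666, 712 and 726 FPKM in LPS (difference -1.18 ± 0.10, adjusted p = 2.24e-05), and Herpud1 differed by -1.59 ± 0.08. Of 33 respiratory chain genes 5 and 5 were called, against 21 and 0 with library totals alone and 5 and 2 without number 3. Of 35 ribosomal protein genes 0 and 7 were called, with 2 and 0 under library totals alone and 4 and 2 under quantile normalization. On the LPS side the ribosomal count was 3 without number 2, 1 without number 3 and 13 without number 4. At an unadjusted p under 0.05 limma gave 0 and 11 ribosomal genes, and limma-voom called 0 and 8.

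Proteases and adhesion genes were called on both sides. Of 26 extracellular proteases and inhibitors 7 were higher in Hevin and 12 in LPS (26.9% and 46.2%, median -0.26). Over all genes tested the shares were 27.6% and 26.5%, so the Hevin side of this list was near the share of all genes. Mmp14, a membrane-bound protease, was at 19.5 ± 4.4 FPKM in Hevin and 168 ± 28.4 in LPS (difference -3.05 ± 0.10), while Adam8 and the inhibitor gene Timp2 were higher in Hevin (differences 0.89 ± 0.09 and 0.85 ± 0.08). Of 26 integrin and adhesion genes 10 were higher in Hevin and 9 in LPS (38.5% and 34.6%), and 16 and 6 with library totals alone. The adhesion molecule genes Icam1 and Vcam1 were at 64.00 ± 9.64 and 7.13 ± 2.55 FPKM in Hevin and at 501 ± 47.2 and 54.2 ± 3.21 in LPS (differences -2.96 ± 0.13 and -2.81 ± 0.13). Sdc4, a heparan sulfate proteoglycan, was at 57.2, 46.2, 55.9 and 56.8 FPKM in Hevin and 373, 369, 399 and 396 FPKM in LPS (difference -2.81 ± 0.08, adjusted p = 1.28e-07).

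Of the 5020 genes that were not called, 4433 had a 95% interval of the difference within 0.58 of 0 on the log2 scale, and 587 had an interval that reached past it, so a difference of this size is not excluded for them.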

How the data were processed

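Poly(A) RNA was sequenced from 12 stranded libraries, 4 each of Hevin, LPS and Media, per the labels' protocols. The authors deposited FPKM values per gene in a single table; Bowtie2 2.3.5.1, Trimmomatic 0.39, FastQC 0.11.7, edgeR 3.30.3, R 4.0.0, featureCounts, Subread 1.6.3 and the mm10 build are listed without settings in the processing notes of the submitters. Low FPKM values moved in steps of 1 read, and whole reads were recovered for 100% of 14541 genes (within 0.1 of a whole number). Recovery was up to a common divisor per gene, so a gene whose reads share a divisor is counted too low. The recovered reads gave the depth and, together with the steps of the FPKM values, the scaling factors. They were also used in the alternatives with limma-voom and with library totals.

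Hevin was compared with LPS on log2(FPKM + 1) with limma 3.58.1 in R 4.3.3 (mean-variance trend, replicate number as a block), with Benjamini-Hochberg adjustment over 10946 genes and a threshold of 0.05. The replicate numbers come from the labels. Deviations from the group means correlated at 0.388 to 0.708 in the 4 same-numbered pairs and at -0.197 on average between different numbers. Centring on the group means makes the latter average negative, so it is no separate support for the pairing. Hevin 3 with LPS 4 (0.524) and Hevin 4 with LPS 3 (0.441) were above Hevin 4 with LPS 4 (0.388). Classes by Media come from the same model over 12 libraries. The genes and lists were chosen with earlier results of these data known. Genes named are the 12 largest differences on each side that do not overlap between groups (mean of at least 5 FPKM in a group), the 4 largest per side in each Media class, up to 3 called members per side of each list, 11 genes of LPS sensing, Hevin and microglia, and the 10 genes moved most alike. Unnamed gene models and 22 names turned into dates were passed over. In data simulated from these libraries 0.0931% of unchanged genes were called, and 100% of genes changed 4-fold, 92.5% of those changed 2-fold and 59.7% of those changed 1.5-fold. Far fewer genes were changed in the simulation than the 54.1% called here, so these rates need not carry over. Promoters are RefSeq's, matched by symbol for 8339 of 10945 symbols tested, and shared exons were looked up in GENCODE M21 (GRCm38). Alternatives were other pseudocounts, filters and scalings, no block, no trend, 12 libraries, limma-voom and leaving out each number. Some named genes are not reported here.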

Additional observations from a re-analysis of the deposited data

Results flagged for a closer look

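In 422 sets of 4 libraries (211 genes in Hevin and in LPS), 23 sets held a library that stood far from the other 3 by Dixon's test, or 5.45%; chance gives about 1 in 20. Of these 23, 7 fell in Hevin 2 and 4 in LPS 2. Those included the 6 sets of neutrophil genes: Ngp was at 345 FPKM in Hevin 2 and 424 in LPS 2, S100a9 at 789 and 835, and Camp at 134 and 146, against at most 39.5 FPKM in any other library of these groups. These 3 genes were called higher in LPS, also without number 2, but each call was lost under 7 alternatives, among them without number 3, without number 4 and without the block. Also in Hevin 2, Atp6v1h stood high at 127 FPKM and Tmem119 at 3.23, and Axl stood low at 42.3 and Sdc4 at 46.2. In LPS 2, Dguok stood high at 3.98 FPKM.

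In Hevin 3, Ccl5 stood high at 61.5 FPKM and Hmgcs1 at 28.2, and Itgb5 stood low at 32.6 and Tlr4 at 46.7, the last within a span of 2 FPKM. In Hevin 4, Ptgs1 stood high at 59.1 FPKM, Nsdhl at 3.45 and Slc16a3 at 13.1. In Hevin 1, Lilrb4a stood high at 1042 FPKM and Spred1 at 45.4. In LPS 1, Il21r stood high at 2.45 FPKM and Mvd at 3.95, and Chac1 stood low at 33.3.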

How the results depend on the processing

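The count of genes higher in Hevin (3022) and in LPS (2904) moved by over 1.5 times with library totals in place of the authors' scaling factors (5977 and 1304) and when a difference of at least 1 on the log2 scale was asked for (374 and 617). Without the replicate block the counts were 2199 and 2003. Leaving out each replicate number gave 2351 to 2803 genes higher in Hevin and 2328 to 2713 higher in LPS. Limma-voom on the recovered reads called 3048 and 2938. Of 211 named genes 196 were called. Under all 15 alternatives 182 of them were tested, and 156 were called under each. The other 14 were not tested where 1 FPKM was asked for in all 8 libraries, and 13 of them were called under every other alternative. Atp5b and Ctsz, higher in LPS, stood at 0.27 and 0.53 on the Hevin side under quantile normalization. Of 1080 list counts under alternatives 987 stayed within 1.5 times of the value reported. The libraries held at least 18343996 reads, and the median SE of a difference over 4 pairs was 0.104 on the log2 scale.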

Other observations

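Regulators of cell death were largely on the LPS side, with 19 of 30 genes higher in LPS and 5 in Hevin (median -0.62). These are 63.3% and 16.7%, against 26.5% and 27.6% of all genes tested. With library totals alone the counts were 16 and 10. Casp4, the caspase that binds intracellular LPS, was at 35.5, 21.3, 37.7 and 33.4 FPKM in Hevin and 301, 208, 287 and 361 FPKM in LPS, a difference of -3.14 ± 0.09 (limma adjusted p = 1.92e-07). Every Hevin library was under every Media library (74.9, 49.3, 84.6 and 68.3 FPKM), and number 2 was the lowest in each group. The tumour necrosis factor receptor gene Tnfrsf1b and the caspase inhibitor gene Cflar were higher in LPS too (differences -2.04 ± 0.09 and -1.84 ± 0.09). Higher in Hevin were Bcl2, which opposes apoptosis, at 3.5 ± 0.362 FPKM against 0.668 ± 0.249 in LPS, and Bmf, which promotes it, at 10.9 ± 1.03 against 1.24 ± 0.521 (differences 1.44 ± 0.14 and 2.44 ± 0.15).

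The list of potassium and proton channels also held Clic4, which is of the chloride intracellular channel family. Of its 11 genes tested 6 were higher in Hevin and 2 in LPS (54.5% and 18.2%, median 0.30). Over all genes tested the shares were 27.6% and 26.5%. Besides Kcna3, the potassium channel genes Kcnk6 and Kcnj2 were higher in Hevin (differences 1.31 ± 0.12 and 1.08 ± 0.15), and both were lowered by LPS alone. The proton channel gene Hvcn1 was higher in LPS (difference -0.61 ± 0.07), a call lost without the replicate block (adjusted p = 0.0551), and Clic4 was at 311 ± 8.49 FPKM in Hevin and 1037 ± 55.7 in LPS (difference -1.73 ± 0.07).

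A search made after the values were seen asked which genes were under 1 FPKM in each library of a group and at least 5 FPKM in each library of the other. It found 8 genes under 1 FPKM in Hevin: Slamf1, Heatr9, Serpina3f, 6530402F18Rik, Ifnb1, Steap4, Cd69 and Mmp3. Ifnb1, the gene of interferon beta, was at 0.281, 0.509, 0.041 and 0.138 FPKM in Hevin and 9.56, 23.5, 28.2 and 17.4 FPKM in LPS. The reverse held for 1 gene, Abcd2, a peroxisomal fatty acid transporter, at 8.81, 6.69, 5.35 and 6.78 FPKM in Hevin, 0.634, 0.917, 0.347 and 0.557 FPKM in LPS and 2.32, 2.08, 1.59 and 1.89 FPKM in Media.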
